A study of Mus musculus with 6 samples.

Results

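The small leucine-rich proteoglycans (SLRPs) described here are Fmod, Lum, Dcn, Bgn, Omd, Ogn, Prelp, Kera, Aspn and Podn. These 10 genes were taken by symbol from the 33696 genes counted in each cell, and each symbol matched 1 row.

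SLRPs are secreted proteins of the extracellular matrix whose leucine-rich repeats bind collagen, and most carry chondroitin, dermatan or keratan sulfate chains. In tendon they sit on collagen fibrils and regulate how fibrils assemble and how wide they grow, and several of them bind growth factors of the TGF-β and BMP families. Decorin (Dcn), biglycan (Bgn) and asporin (Aspn) form class I, fibromodulin (Fmod), lumican (Lum), keratocan (Kera), PRELP (Prelp) and osteomodulin (Omd) class II, osteoglycin (Ogn) class III and podocan (Podn) class V.

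Cells came from the Achilles tendons of Gli1-CreERT2; Ai9 reporter mice given tamoxifen, in which cells with Gli1 promoter activity at induction, and their descendants, carry the reporter. The sort therefore reports lineage and not Gli1 transcript at collection. Tendons were uninjured or were collected at 7 or 21 days after tenotomy (dpi), from 24 mice in all and 8 per time, and reporter-positive (Gli1+) and reporter-negative (Gli1-) cells were sequenced separately. Each of the 6 conditions was 1 library of pooled mice, with no map from cells to mice. Differences between conditions therefore have no replicate check and no test. Intervals are 95% and cover counting error only.

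A level is the summed UMIs (transcript molecules) of a gene over a set of cells as counts per 1000000 UMIs (CPM). Each molecule was counted once at its 3' end, so CPM compares numbers of molecules between genes and needs no division by transcript length. Tendon mesenchymal cells were taken as cells with at least 1 UMI of Pdgfra, a receptor gene of fibroblasts and tendon sheath progenitors, or at least 1 UMI of Scx, the transcription factor of tendon cells. The gates overlap and neither uses an SLRP. The Pdgfra gate held 1774, 4790 and 5255 Gli1+ cells at the uninjured, 7 dpi and 21 dpi stages and 5108, 6581 and 5529 Gli1- cells. The Scx gate held 640, 2159 and 2279 Gli1+ cells and 167, 1893 and 1758 Gli1- cells.

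Some features of the libraries bear on every comparison below. After filtering, the libraries held 7057 to 10882 cells with median depths of 4297 to 9775 UMIs, lowest in uninjured Gli1- cells. The labels state equal numbers of each sex. At 7 dpi, however, 0 Gli1+ cells of the Pdgfra gate held Xist without a Y-linked transcript and 77.1% held Y-linked transcripts without Xist, while at 21 dpi 94.4% held Xist alone. The Gli1- libraries at 7 and 21 dpi gave 77.5% with Y-linked transcripts alone and 94.9% with Xist alone. Time and sex therefore cannot be told apart between 7 and 21 dpi. The uninjured Gli1- cells of this gate held Y-linked transcripts alone in 72.1% and Xist alone in 0, whereas the uninjured Gli1+ cells were mixed, with 63.6% Xist alone and 23.1% Y-linked alone. Epidermal marker RNA, free or of epidermal-like cells in the gate, was abundant in the Gli1+ library at 7 dpi. The 5 epidermal markers summed to 3305 CPM in the Pdgfra gate there. Their sum was 127 CPM in uninjured and 470 CPM in 21 dpi Gli1+ cells and 11.4 to 78.9 CPM in the Gli1- libraries. Of 1820 epidermal-like cells in the Gli1+ library at 7 dpi, 13.1% held a Pdgfra UMI. How much of the sum was free RNA was not tested. Uninjured Gli1+ cells of the gate held more bone and immune marker RNA than the other libraries, the 6 bone markers summing to 2067 CPM (4.93 to 642 CPM elsewhere) and the 5 immune markers to 124 CPM (1.01 to 2.34 CPM elsewhere). Immune-like cells made up 3633 of the 7057 cells of that library and 0 to 14 cells of each other one. All of these markers were detected in those libraries. Leaving out gate cells named by level as epidermal, immune, endothelial, mural, Schwann or muscle shifted log2 ratios between stages by -0.13 to 0.12. Of 120 such ratios, 117 kept their sign. The part of these transcripts in the SLRP levels of the remaining cells was not tested. Pairs of libraries shared 15 to 32 cell barcodes, at most 0.354% of the smaller one. In the Pdgfra gate Cntn5 was at 491 CPM in uninjured Gli1- cells and 158 and 184 CPM in 7 dpi Gli1+ and Gli1- cells. It was at 2.7 CPM in uninjured Gli1+ cells and 0.26 and 0.34 CPM in the 21 dpi libraries. Leaving out Cntn5, mitochondrial and ribosomal UMIs shifted log2 ratios between stages by -0.03 to 0.07, and 118 of 120 kept their sign.

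The SLRPs together took a smaller share of the transcriptome at 7 dpi, and the mixture changed from one dominated by decorin to one shared with biglycan, lumican and asporin. In Pdgfra-positive cells the 10 genes took 2.08% of all UMIs in uninjured Gli1+ tendon, 0.874% at 7 dpi and 1.55% at 21 dpi. The Gli1- libraries gave 2.20%, 1.08% and 1.54%. Dcn alone made up 82.1% of these UMIs in uninjured Gli1+ cells, 42.6% at 7 dpi and 54.4% at 21 dpi, while the part of Bgn was 4.19%, 29.0% and 16.4%. Leaving Dcn aside, the other SLRPs summed to 3707, 5018 and 7076 CPM for Gli1+ and 3181, 5603 and 7432 CPM for Gli1- cells, so the lower total at 7 dpi was that of Dcn in this gate. In Scx-positive cells Fmod was the next largest part after Dcn before injury, at 17.3% of SLRP UMIs in Gli1+ and 14.6% in Gli1- cells, and fell to 6.08% and 3.82% at 7 dpi.

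**Figure D1:**
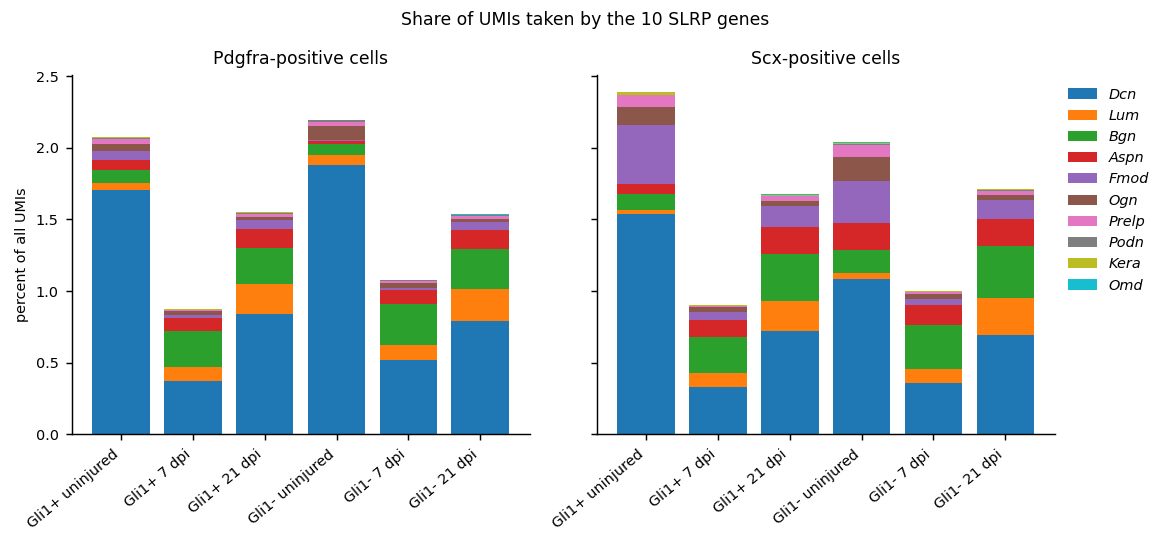
Share of all UMIs (percent, vertical axis) taken by the 10 SLRP genes in Pdgfra-positive (left) and Scx-positive (right) cells of each library, stacked by gene. The Dcn segment is the tallest in every bar and is shortest at 7 dpi, when the whole stack is between 0.874% and 1.08% of UMIs.

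Between uninjured tendon and 7 dpi, more SLRPs were lower than higher by at least 2-fold. In Pdgfra-positive Gli1+ cells 5 of 10 were lower (Fmod, Dcn, Omd, Prelp, Podn) and 1 was higher (Bgn), where 14.5% of all 9085 genes tested were lower and 10% higher by that fold. Gli1- cells of this gate had 5 lower (Dcn, Omd, Ogn, Prelp, Podn) and 3 higher (Bgn, Kera, Aspn), against 11.4% and 9.61% of all genes. With cells thinned to 2000 UMIs, Prelp (-0.86) and Podn (-0.30) were under 2-fold in these Gli1- cells, as was Podn in Gli1+ cells (-0.79). In Scx-positive cells the same 6 genes, Fmod, Dcn, Omd, Ogn, Prelp and Kera, were lower in each sort, against 15.8% of all genes in Gli1+ and 12.5% in Gli1- cells. Lum and Bgn were higher in Scx-positive Gli1+ cells and Lum in Gli1- cells, against 9.48% and 8.66% of genes. All 10 members were counted, also those under the mean of 10 CPM that the other genes had to reach, which were Kera in Pdgfra-positive Gli1- cells here (5.63 CPM), Omd from 7 to 21 dpi in Gli1+ cells of the Pdgfra and Scx gates (7.90 and 8.17 CPM) and, between sorts, Kera in uninjured and Omd in 7 dpi libraries. The median log2 ratio of the 10 members was -1.66 in Gli1+ and -1.68 in Gli1- Scx-positive cells, and that of all genes tested was -0.16 and -0.04. Scaling by TMM factors in place of total UMIs raised all ratios and turned the split of all genes, to 8.52% to 9.58% lower and 11.8% to 18.2% higher, whereas the members lower were 4 and 5 in Pdgfra-positive Gli1+ and Gli1- cells and 6 and 6 in Scx-positive ones, with 2, 4, 3 and 2 higher.

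From 7 to 21 dpi no SLRP was lower by 2-fold in either gate or sort with all UMIs of each cell counted. Pdgfra-positive cells had 5 members higher in Gli1+ (Fmod, Lum, Dcn, Prelp, Kera) and 4 in Gli1- cells (Fmod, Lum, Omd, Kera), where 2.78% and 2.44% of all genes were higher and 3.57% and 2.16% lower. Scx-positive cells had 5 higher in each sort, Fmod, Lum, Omd and Prelp in both, with Dcn in Gli1+ and Kera in Gli1- cells, against 2.38% and 2.56% of all genes higher and 4.09% and 2.90% lower. Without chondrocyte-like and bone-like cells Omd was under 2-fold in Scx-positive Gli1+ cells (0.85), which leaves 4 in that sort. With TMM scaling 1.91% to 2.84% of all genes were lower and 2.81% to 3.94% higher, and 4 to 6 members were higher. These 7 and 21 dpi libraries are also the ones that differ in sex. Each cell was also thinned to 2000 UMIs, which keeps only gate cells whose marker UMI survived and weights cells equally. The counts of higher members were then 2 and 2 in the Pdgfra gate and 2 and 3 in the Scx gate. Podn was then lower by 2-fold in Pdgfra-positive Gli1- cells, at -1.11 against -0.77 before thinning. Shares of all genes past 2-fold are not given for thinned cells. At 21 dpi against uninjured, Scx-positive Gli1+ cells had 5 members lower and 3 higher (18.4% and 6.15% of all genes), and Gli1- cells 5 lower and 2 higher (12.8% and 5.74%). The same comparison in Pdgfra-positive cells gave 4 lower and 3 higher in Gli1+ (11.1% and 5.62%) and 3 lower and 5 higher in Gli1- cells (11.0% and 7.97%). Omd was not among the lower ones in these Gli1- cells (-0.33). It was at -1.22 without chondrocyte-like and bone-like cells and at -1.03 with thinning. The counts of lower members at 21 dpi against uninjured also depend on the scaling. With TMM factors they were 2 in Scx-positive Gli1+ cells (Omd and Ogn) and 3 in Gli1- cells (Omd, Ogn and Prelp), and 0 and 3 in Pdgfra-positive Gli1+ and Gli1- cells, where Dcn was at -0.58 and -1.07, and 4.74% to 8.42% of all genes were then lower and 11.3% to 20.2% higher. In Gli1+ cells with Xist and no Y-linked transcripts, which compare these stages within a sex, the 4 lower members of the Pdgfra gate, Dcn, Omd, Ogn and Podn, were no longer past 2-fold (-0.94 to -0.75), nor was Dcn of the Scx gate (-0.80 against -1.10 in all cells). The comparisons share libraries, so a low 7 dpi value enters both the first and the second step.

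**Figure D2:**
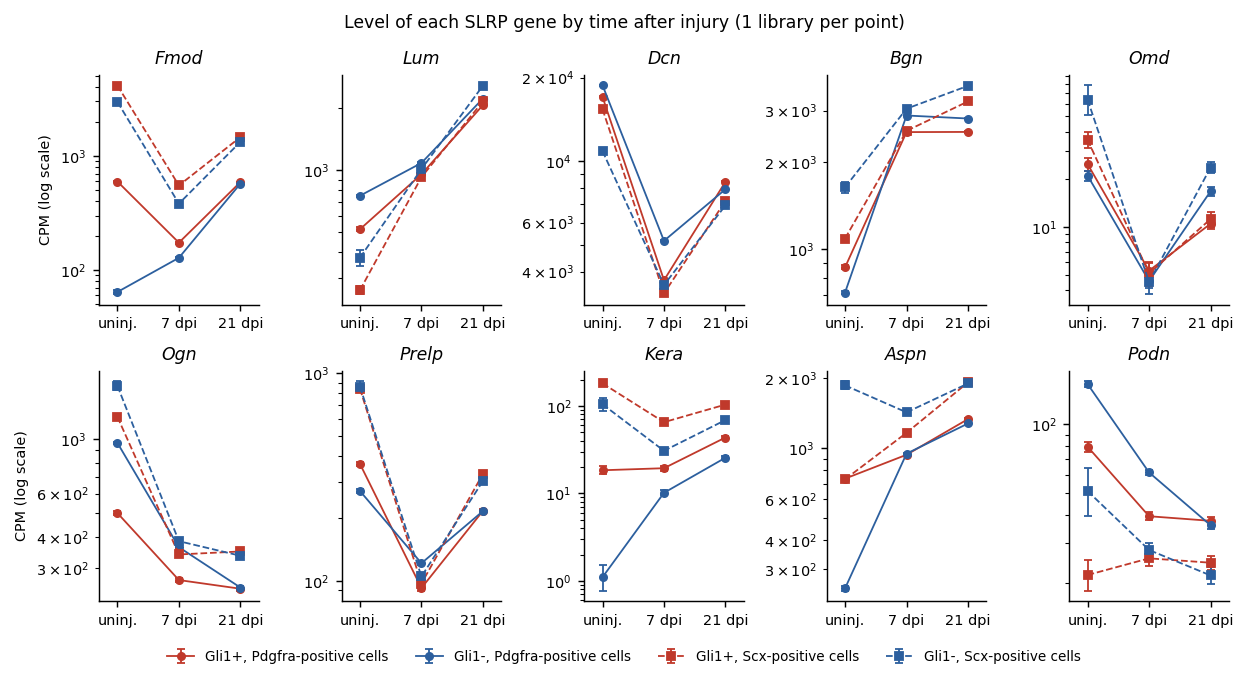
CPM (log axis) of each SLRP gene in uninjured tendon and at 7 and 21 dpi, 1 library per point, with circles and solid lines for Pdgfra-positive and squares and dashed lines for Scx-positive cells, red for Gli1+ and blue for Gli1-. Bars are 95% intervals of counting error. Dcn, Prelp and Omd are lowest at 7 dpi in all 4 lines, Lum is higher at each step, and the Fmod line of Gli1- Pdgfra-positive cells alone starts low, at 64.2 CPM.

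Among the class I genes, Dcn was lower after injury and Bgn higher. Dcn (ENSMUSG00000019929), the most abundant SLRP of tendon, stood at 17042 CPM in uninjured Gli1+ Pdgfra-positive cells, 3722 CPM at 7 dpi and 8424 CPM at 21 dpi. In Gli1- cells of that gate it was at 18767, 5161 and 7920 CPM. The Scx gate gave 15395, 3338 and 7181 CPM for Gli1+ and 10867, 3577 and 6926 CPM for Gli1- cells. All 4 series were thus lowest at 7 dpi and still below their uninjured value at 21 dpi, at 42.2% to 63.7% of it. The log2 ratio of 7 dpi over uninjured was -2.20 (-2.20 to -2.19) and -1.86 (-1.87 to -1.86) in Pdgfra-positive Gli1+ and Gli1- cells. It was -2.21 and -1.60 in Scx-positive cells.

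Bgn (ENSMUSG00000031375), the closest relative of decorin in class I, went the other way. Its level in Pdgfra-positive cells was 868, 2532 and 2535 CPM for Gli1+ and 712, 2887 and 2819 CPM for Gli1- libraries. Scx-positive cells were at 1091, 2557 and 3227 CPM for Gli1+ and 1636, 3046 and 3651 CPM for Gli1- libraries. Nearly all of the change in the Pdgfra gate was present by 7 dpi, with log2 ratios of 1.54 (1.52 to 1.57) and 2.02 (2.0 to 2.04), and the step from 7 to 21 dpi was 0.00 and -0.03. Bgn and Dcn therefore stood 19.6 and 26.4 times apart in uninjured Gli1+ and Gli1- Pdgfra-positive cells and 1.47 and 1.79 times apart at 7 dpi. Bgn lies on chromosome X, and the 7 and 21 dpi libraries differ in sex. Time and sex cannot be told apart in its step from 7 to 21 dpi.

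Aspn (ENSMUSG00000021388), which competes with decorin for a collagen site and binds TGF-β, depended on the cells compared. In uninjured Pdgfra-positive cells it was at 738 CPM in Gli1+ but 249 CPM in Gli1- libraries. It was then close between the sorts, at 934 and 945 CPM at 7 dpi and 1330 and 1273 CPM at 21 dpi. Among Scx-positive cells the order of the sorts before injury was the opposite, at 733 CPM for Gli1+ and 1857 CPM for Gli1- cells, followed by 1161 and 1422 CPM and by 1913 and 1892 CPM. The Gli1- Scx-positive series was the only one of the 4 that was lower at 7 dpi, by a log2 ratio of -0.39 (-0.44 to -0.33), which is under 2-fold and rests on 167 uninjured cells.

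The class II genes Fmod and Kera were higher in the Scx gate than in the Pdgfra gate of every library. Chondrocyte-like cells at 21 dpi, described below, also held Fmod but little Kera. Fmod (ENSMUSG00000041559) stood at 4137, 551 and 1460 CPM in Scx-positive Gli1+ cells and 2972, 382 and 1327 CPM in Gli1- cells over the 3 stages. At 7 dpi it was at 13.3% and 12.8% of its uninjured level and at 21 dpi at 35.3% and 44.7%. Log2 ratios of 7 dpi over uninjured were -2.91 (-2.94 to -2.88) and -2.96 (-3.01 to -2.91). With cells thinned to 2000 UMIs these ratios were -2.06 and -2.07. From 7 to 21 dpi they were 1.41 and 1.80, and 0.56 and 0.97 with thinned cells, under 2-fold in each sort.

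In Pdgfra-positive cells Fmod depended on the sort. Gli1+ cells had 596, 174 and 589 CPM, while Gli1- cells had 64.2, 128 and 571 CPM. Endothelial-like cells, in which Fmod UMIs are taken as free RNA, held 26.3, 94.0 and 28.2 CPM within Gli1+ samples, against 9.62, 39.1 and 59.0 CPM within Gli1- ones. The log2 ratios of 7 dpi over uninjured were -1.78 (-1.82 to -1.74) and 0.99 (0.93 to 1.06), opposite in sign. With cells thinned to 2000 UMIs they were -1.02 and 0.71. The uninjured Gli1+ cells of this gate also held more Scx and Tnmd, at 23.8 and 87.2 CPM against 3.57 and 10.4 CPM in Gli1- cells. At 7 dpi Scx and Tnmd were at 48.7 and 77.0 CPM for Gli1+ and 40.3 and 74.8 CPM for Gli1- cells. Scx, Tnmd and Fmod were thus all higher than uninjured in Gli1- cells. In Gli1+ cells Scx was higher, while Tnmd and Fmod were lower. Within those uninjured Gli1+ cells Fmod was at 397 CPM in cells with Xist alone and 964 CPM in cells with Y-linked transcripts alone. Among the Scx-negative cells of this gate with Pi16 or Dpp4, genes of adventitial fibroblasts, Fmod was at 117 CPM in uninjured Gli1+ against 25.9 CPM in Gli1- cells. The part of tendon markers and sex in the Fmod difference was not tested.

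Kera (ENSMUSG00000019932), best known from the cornea, lay below Fmod in both gates of every library, by 8.45-fold to 58.3-fold. Scx-positive cells had 181, 65.2 and 104 CPM for Gli1+ and 105, 30.7 and 69.0 CPM for Gli1- libraries. Pdgfra-positive cells had 18.4, 19.4 and 43.6 CPM for Gli1+ and 1.10, 10.2 and 25.6 CPM for Gli1- libraries. The lowest point in the Scx gate was thus 7 dpi in each sort, and the highest in the Pdgfra gate was 21 dpi. After the thinning, the Kera ratio of 7 dpi over uninjured in Scx-positive cells was -0.75 in Gli1+ and -0.79 in Gli1- cells, under 2-fold. In Pdgfra-positive Gli1+ cells it was 2.47 after the thinning and 0.08 before. In the Scx gate the summed tendon markers were also lowest at 7 dpi. The 5 tenocyte markers (Scx, Tnmd, Mkx, Thbs4, Cilp2), all detected, summed to 5390, 1832 and 3737 CPM for Gli1+ and 5179, 1520 and 2931 CPM for Gli1- Scx-positive cells, with Thbs4, a matrix protein of tendon, as the largest part. Scx, the gate's own marker, was at 336, 226 and 230 CPM for Gli1+ and 452, 183 and 187 CPM for Gli1- libraries, and Tnmd at 706, 219 and 574 CPM and 524, 187 and 461 CPM. In the Pdgfra gate the same sum was 805, 748 and 1463 CPM for Gli1+ and 210, 623 and 1192 CPM for Gli1- cells. A lower level per cell and fewer cells of a high-expressing kind within the gate cannot be told apart from these sums. Among tenocyte-like cells, with UMIs of at least 3 of these markers, Fmod was at 6058, 1194 and 2137 CPM for Gli1+ and 4309, 832 and 1928 CPM for Gli1- libraries.

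Lum (ENSMUSG00000036446), which shares a collagen site with fibromodulin, was the only one of the 10 with a higher level at each successive stage in both gates and both sorts. Scx-positive cells were at 261, 924 and 2153 CPM for Gli1+ and 376, 1011 and 2567 CPM for Gli1- libraries. Pdgfra-positive cells had 516, 954 and 2066 CPM for Gli1+ and 751, 1083 and 2224 CPM for Gli1- libraries. The log2 ratio of 21 dpi over uninjured was 3.04 (2.98 to 3.11) and 2.77 (2.64 to 2.90) in Scx-positive and 2.0 and 1.57 in Pdgfra-positive cells. Before injury Fmod exceeded Lum 15.8-fold in Scx-positive Gli1+ cells and 7.91-fold in Gli1- cells. At 7 and 21 dpi the order over the whole gate had turned, and Lum exceeded Fmod 1.68-fold and 1.48-fold in Gli1+ and 2.65-fold and 1.93-fold in Gli1- cells. Cells richer in tendon markers gave another order in part. Tenocyte-like Gli1+ cells held Fmod at 1194 and Lum at 1088 CPM at 7 dpi and 2137 and 2071 CPM at 21 dpi, Fmod being the higher, while tenocyte-like Gli1- cells held 832 and 1133 CPM and 1928 and 2408 CPM, Lum being the higher. In thinned cells with 2 or more Scx UMIs Fmod was the higher in both sorts, at 2300 against 868 CPM at 7 dpi and 2827 against 1711 CPM at 21 dpi for Gli1+ cells and at 1407 against 826 CPM and 2286 against 2009 CPM for Gli1- cells.

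Prelp (ENSMUSG00000041577), which links collagen to heparan sulfate of basement membranes, stood at 840, 97.2 and 327 CPM in Scx-positive Gli1+ and 860, 105 and 302 CPM in Gli1- cells. Its ratios of 7 dpi over uninjured, -3.11 (-3.18 to -3.05) and -3.03 (-3.13 to -2.93), had overlapping intervals in the sorts. Pdgfra-positive cells had 365, 92.5 and 217 CPM for Gli1+ and 271, 122 and 217 CPM for Gli1- libraries. At 21 dpi Prelp was at 35.1% to 38.9% of its uninjured level in the Scx gate and at 59.4% to 80.0% in the Pdgfra gate.

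Omd (ENSMUSG00000048368), a protein of mineralized matrix, was scarce. Its level was 35.5, 5.10 and 11.2 CPM for Scx-positive Gli1+ and 63.6, 4.50 and 23.7 CPM for Scx-positive Gli1- cells, and 25, 5.31 and 10.5 CPM and 21.1, 4.57 and 16.8 CPM in Pdgfra-positive cells. A small number of cells with cartilage or bone markers held a large part of the Omd UMIs at 21 dpi. In Gli1- Scx-positive cells at 21 dpi, 45 of 1758 cells (2.56%) were chondrocyte-like or bone-like and held 61.1% of the Omd UMIs. In the Gli1+ library the values were 31 cells (1.36%) and 27.8%. Without these cells Omd was at 9.54 CPM in Gli1- and 8.26 CPM in Gli1+ Scx-positive cells at 21 dpi, and the log2 ratio of 21 over 7 dpi was 1.24 in place of 2.40 and 0.85, under 2-fold, in place of 1.14. The same cells held 3.47% of the Fmod UMIs in the Gli1- and 2.04% in the Gli1+ gate. Their removal left the step from uninjured to 7 dpi at -2.96 in Gli1+ and -4.00 in Gli1- cells (-2.80 and -3.82 with them).

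The class III gene Ogn was lower than uninjured at both stages after injury in both gates and sorts, and the class V gene Podn was so in all but Scx-positive Gli1+ cells. Ogn (ENSMUSG00000021390), or mimecan, was at 500, 268 and 247 CPM in Pdgfra-positive Gli1+ and 962, 364 and 250 CPM in Gli1- cells. Scx-positive cells had 1227, 340 and 350 CPM for Gli1+ and 1639, 385 and 336 CPM for Gli1- libraries. At 21 dpi it was at 20.5% to 49.4% of its uninjured level in the 4 series. The step from 7 to 21 dpi was between -0.54 and 0.04 on the log2 scale.

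Podn (ENSMUSG00000028600) had its higher levels in Pdgfra-positive cells, at 79.7, 39.3 and 37.5 CPM for Gli1+ and 151, 61.3 and 35.9 CPM for Gli1- libraries. With thinned cells its ratio of 7 dpi over uninjured there was -0.79 and -0.30, in place of -1.02 and -1.30. In Scx-positive cells it was at 21.6, 25.6 and 24.5 CPM for Gli1+ and 50.8, 27.9 and 21.5 CPM for Gli1- libraries. The Gli1+ Scx-positive values had overlapping intervals, the ratio of 7 dpi over uninjured being 0.24 (-0.00 to 0.50).

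**Figure D3:**
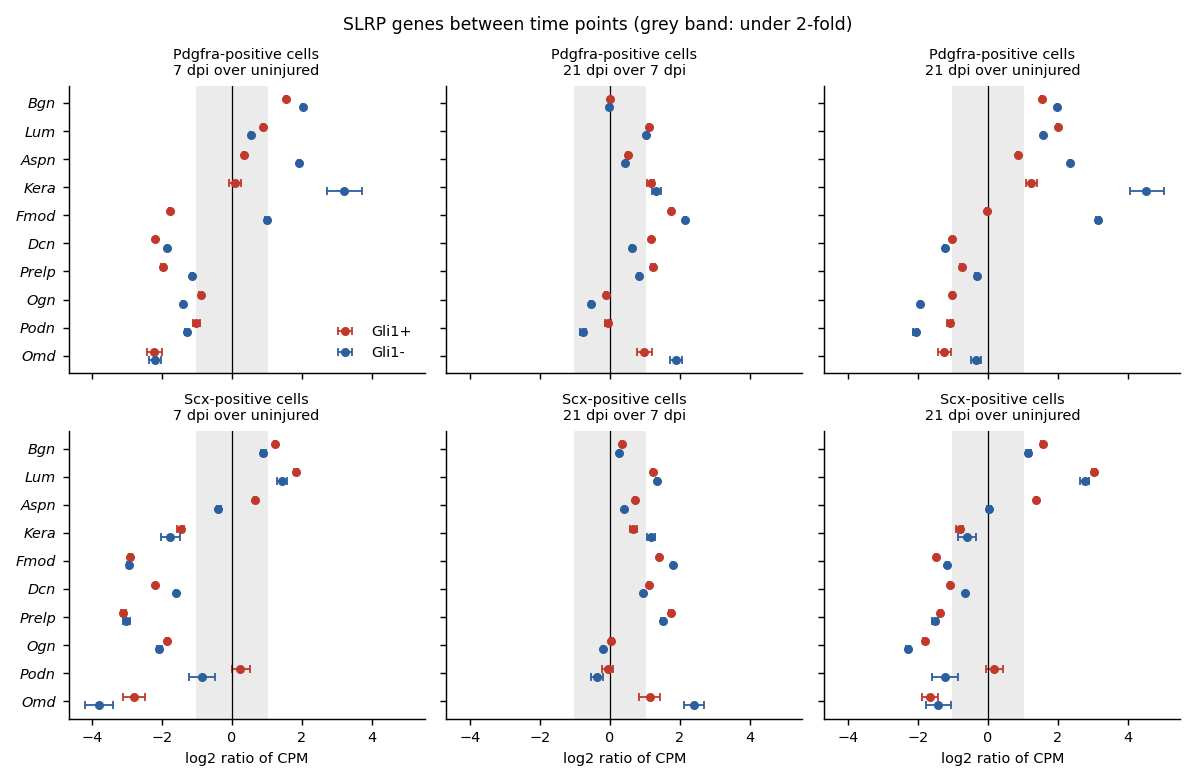
Log2 ratio of CPM (horizontal axis) for each SLRP gene between the 3 pairs of stages, in Pdgfra-positive (top) and Scx-positive (bottom) cells, red for Gli1+ and blue for Gli1-, with 95% intervals of counting error. The grey band marks changes under 2-fold. In the Scx gate at 7 dpi Fmod, Dcn, Prelp, Ogn, Kera and Omd lie left of the band in both sorts, and no point lies left of it from 7 to 21 dpi.

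The sorts differed by 2-fold in 3 members before injury and in 0 after it in the Pdgfra gate, and in 2, 1 and 1 members at the 3 stages in the Scx gate. In uninjured Pdgfra-positive cells Fmod, Kera and Aspn were at least 2-fold higher in Gli1+ cells, with log2 ratios of 3.22 (3.15 to 3.28), 4.06 (3.57 to 4.59) and 1.57 (1.53 to 1.61), where 5.15% of all genes were higher and 3.43% lower. The Kera ratio compares 18.4 with 1.10 CPM. At 7 dpi and at 21 dpi 0 of 10 members passed 2-fold in this gate, near the shares of all genes (1.01% and 0.330% higher, 0.426% and 0.507% lower). The ratios lay between -0.68 and 0.93. In Scx-positive cells Aspn and Podn were lower in uninjured Gli1+ cells (-1.34 and -1.23, with 3.19% of genes lower and 6.19% higher), Kera higher at 7 dpi (1.09, with 1.24% higher and 0.151% lower) and Omd lower at 21 dpi (-1.08, with 0.317% lower and 0.354% higher). Without chondrocyte-like and bone-like cells the Omd ratio at 21 dpi was -0.21, under 2-fold. The uninjured Gli1+ and Gli1- libraries also differed in sex, in depth and in Cntn5. Levels were also read among uninjured cells with Y-linked transcripts alone, which included 111 Scx-positive Gli1- cells. The share of all genes past 2-fold was not taken for these cells, so no count of members is read there. Omd was at 42.8 CPM in Gli1+ and 20.2 CPM in Gli1- Pdgfra-positive cells. In Scx-positive cells Lum was at 190 and 422 CPM and Kera at 336 and 105 CPM.

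Aspn, Omd and Ogn are neighbours on chromosome 13 in RefSeq order, after Ecm2 and on 1 strand, within the span of the oppositely oriented Cenpp. Dcn, Lum and Kera follow each other in the same way on chromosome 10, and Prelp and Fmod are adjacent on chromosome 1. On chromosome 10, Dcn was lower and Lum higher at 7 dpi than uninjured in both gates and sorts, with log2 ratios of -2.20 and 0.89 and of -1.86 and 0.53 in Pdgfra-positive Gli1+ and Gli1- cells and of -2.21 and 1.82 and of -1.60 and 1.43 in Scx-positive ones. Kera was at 0.08 in Pdgfra-positive Gli1+ cells and, like Dcn, lower in the Scx gate (-1.47 and -1.77), and at 3.21 in Pdgfra-positive Gli1- cells, a value that rests on 37 uninjured UMIs. The direction of the other neighbours depended on the cells. In Pdgfra-positive Gli1- cells at 7 dpi over uninjured, Aspn was at 1.92 (1.89 to 1.96) while Omd was at -2.21 (-2.39 to -2.03) and Ogn at -1.40 (-1.43 to -1.38). In Scx-positive Gli1- cells Aspn, Omd and Ogn were all lower, at -0.39, -3.82 and -2.09, while in Gli1+ cells Aspn was at 0.34 and 0.66 in the Pdgfra and Scx gates and Omd and Ogn were lower in both. The chromosome 1 pair, Fmod and Prelp, was lower together in the Scx gate of each sort and in Pdgfra-positive Gli1+ cells, and differed in sign in Pdgfra-positive Gli1- cells (0.99 and -1.15). RefSeq promoters (GRCm38.p6) were at hand for 8 of the 10 members, with Dcn and Lum not matched. The 250 bases before the start of the 3 chromosome 13 neighbours, which differ in direction in 3 of the 4 series, and of Fmod, which was higher in Scx-positive cells of all 6 libraries, are printed here 5' to 3'. Capitals mark CANNTG, the letters bound by basic helix-loop-helix factors such as Scx, which read the same on both strands, and TATAAA on either strand. Matches may overlap, as the TATAAA pair in Ogn does.
Aspn, chr13:49544193-49544442 (+): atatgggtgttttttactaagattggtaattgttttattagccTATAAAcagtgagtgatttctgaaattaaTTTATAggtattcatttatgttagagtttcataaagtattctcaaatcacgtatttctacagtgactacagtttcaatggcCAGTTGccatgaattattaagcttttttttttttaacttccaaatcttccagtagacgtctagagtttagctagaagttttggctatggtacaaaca
Omd, chr13:49582212-49582461 (+): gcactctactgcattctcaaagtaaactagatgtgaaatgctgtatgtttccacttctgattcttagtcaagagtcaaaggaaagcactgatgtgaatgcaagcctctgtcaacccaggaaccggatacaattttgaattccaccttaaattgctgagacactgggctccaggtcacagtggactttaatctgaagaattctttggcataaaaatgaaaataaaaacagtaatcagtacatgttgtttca
Ogn, chr13:49607765-49608014 (+): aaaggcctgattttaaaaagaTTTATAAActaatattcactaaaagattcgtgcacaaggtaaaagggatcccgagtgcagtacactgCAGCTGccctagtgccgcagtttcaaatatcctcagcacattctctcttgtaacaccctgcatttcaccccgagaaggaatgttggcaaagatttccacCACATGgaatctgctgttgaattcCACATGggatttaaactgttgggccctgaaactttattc
Fmod, chr1:134037004-134037253 (+): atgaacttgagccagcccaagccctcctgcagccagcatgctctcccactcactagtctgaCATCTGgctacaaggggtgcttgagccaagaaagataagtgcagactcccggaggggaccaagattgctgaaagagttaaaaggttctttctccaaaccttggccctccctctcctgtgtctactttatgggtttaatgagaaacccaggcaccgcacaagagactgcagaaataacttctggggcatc
CANNTG occurred once before Aspn, 3 times before Ogn, once before Fmod and not before Omd, and TATAAA 2 times before Aspn and 2 times before Ogn. Of 32851 promoter windows of this length, 66.2% hold CANNTG and 12.4% hold TATAAA on either strand. In the windows not printed, CANNTG counts were 0 for Kera and Prelp, 1 for Bgn, and 3 and 1 for the Podn windows. Kera, like Fmod, was higher in Scx-positive cells of all 6 libraries. A match is a description of the letters in this window only.

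Scx-positive cells were also compared with Pdgfra-positive ones of the same library, and so of the same sort and time. Cells with Scx and no Pdgfra UMI were set against cells with Pdgfra and Ly6a but no Scx, Pi16 or Dpp4. In the Gli1+ libraries 4, 2 and 5 members were at least 2-fold higher in the Scx-positive cells (uninjured, 7 dpi, 21 dpi), where 7.27%, 1.50% and 1.87% of all genes were, and 2, 0 and 0 were lower, against 6.99%, 2.15% and 4.88% of genes. In the Gli1- libraries 7, 3 and 6 were higher (9.84%, 1.55% and 1.79% of genes) and 3, 1 and 0 lower (10.8%, 3.48% and 5.47%). Omd, with means of 6.5 and 5.32 CPM at 7 dpi, was counted though below 10 CPM. Fmod and Kera were among the higher ones in all 6 libraries. Fmod was at 5341 against 452 CPM, 1014 against 106 CPM and 1959 against 379 CPM in the Gli1+ libraries. The Gli1- libraries gave 3540 against 23.2 CPM, 706 against 73.1 CPM and 1909 against 478 CPM. The log2 ratio was thus smallest at 21 dpi in each sort, at 2.37 in Gli1+ and 2.0 in Gli1- cells. Kera ratios ran from 2.22 to 5.10, and to 9.27 in uninjured Gli1- cells, where the Pdgfra-positive level of 0.279 CPM rests on 4 UMIs.

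Lum and Podn had the opposite pattern before injury. Scx-positive cells held 86.7 CPM of Lum against 707 CPM in the Pdgfra-positive cells of uninjured Gli1+ tendon, and 165 against 884 CPM in Gli1- tendon, log2 ratios of -3.03 and -2.42. At 7 and 21 dpi the Lum ratio was between -0.26 and 0.10, so the levels in the compared cells were close. Podn ratios were -2.88 and -1.44 before injury and between -1.37 and 0.37 after it. Podn and Lum were the 2 members lower in uninjured Gli1+ cells. Dcn was also lower in the Scx-positive cells of uninjured tendon, at 12411 against 21679 CPM in Gli1+ and 8259 against 22689 CPM in Gli1- cells.

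**Figure D4:**
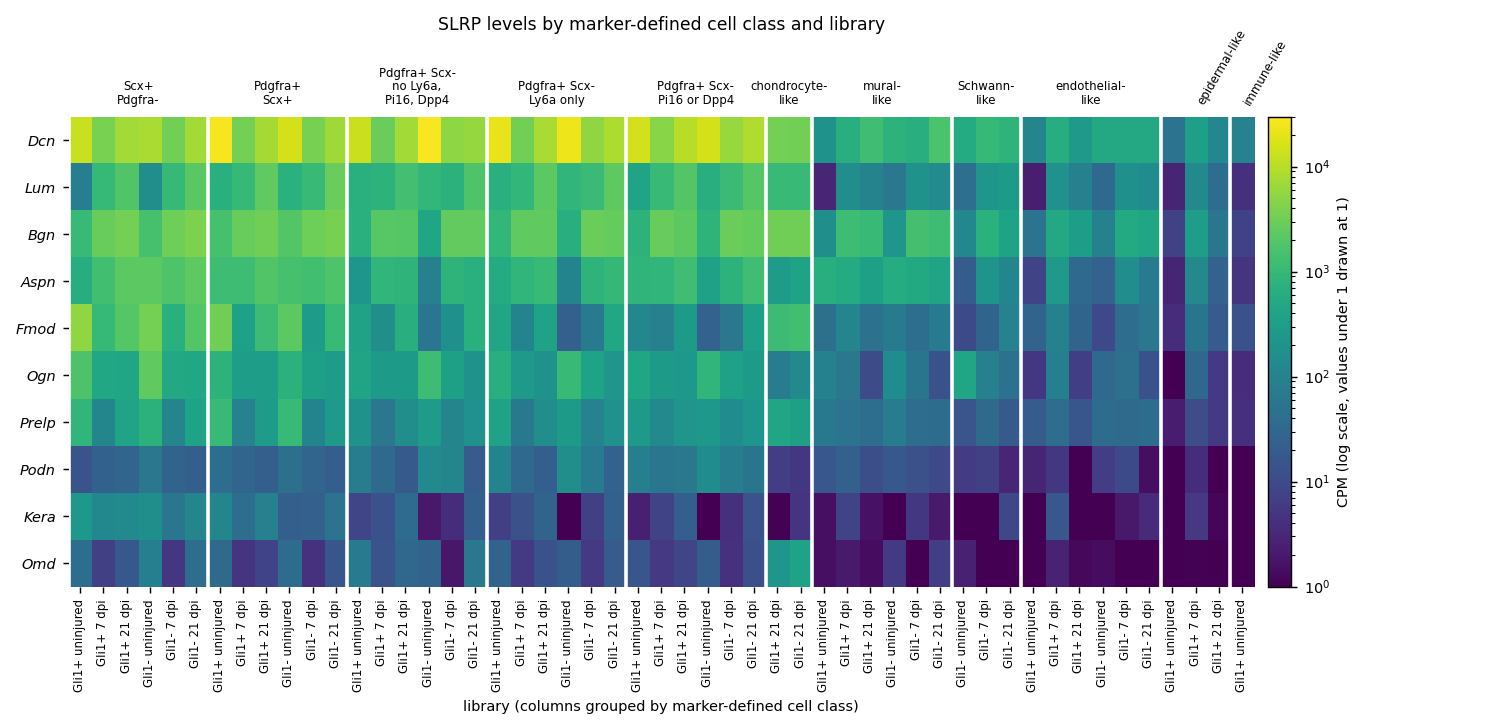
CPM (colour, log scale) of each SLRP gene in marker-defined cell classes, 1 column per library with at least 50 cells of the class. Dcn is the brightest row in tendon mesenchymal classes, Fmod and Kera are highest in the Scx+ columns among the classes drawn (tenocyte-like and bone-like cells are not drawn), and Omd is brightest in chondrocyte-like cells, at 226 and 376 CPM.

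Fmod was also higher in cells with more Scx UMIs in 5 of 6 libraries, the exception being uninjured Gli1- cells (82, 4352 and 3182 CPM with 0, 1 and 2 or more Scx UMIs), while the relation of Lum to Scx differed by stage. Cells of either gate at full depth were thinned to 2000 UMIs and grouped by the Scx UMIs left. The group with 0 Scx UMIs therefore also held Scx-positive cells whose Scx UMIs were lost in thinning. Fmod in the Gli1+ library at 7 dpi was at 203 CPM with 0 Scx UMIs left, 1131 CPM with 1 and 2300 CPM with 2 or more. Gli1- cells at 7 dpi had 118, 758 and 1407 CPM. In uninjured Gli1+ cells Fmod was at 1008, 5845 and 6567 CPM while Lum was at 474, 342 and 53 CPM. At 21 dpi Lum hardly varied, at 1866, 2006 and 1711 CPM for Gli1+ and 1970, 2286 and 2008 CPM for Gli1- cells. Bins of 2 or more Scx UMIs held 33 to 243 cells.

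**Figure D5:**
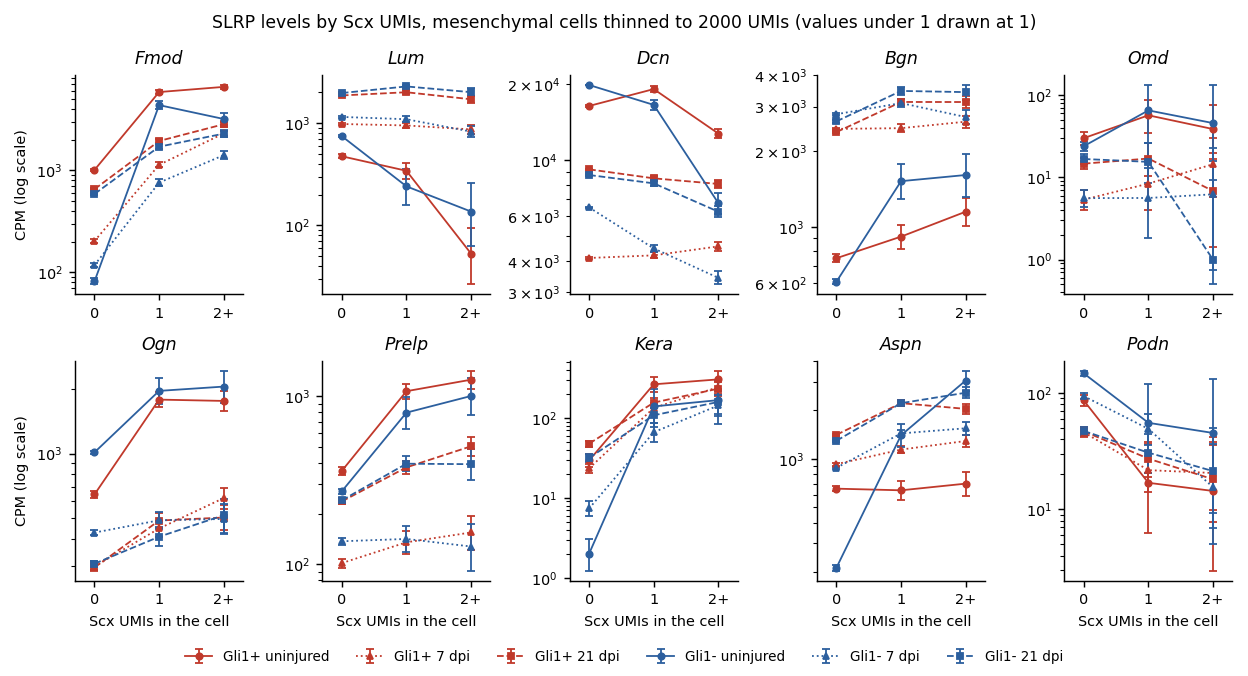
CPM (log axis) of each SLRP gene in mesenchymal cells thinned to 2000 UMIs, by the number of Scx UMIs left in the cell after thinning, for the 6 libraries. Fmod and Kera lie higher in cells with Scx UMIs in every library, and Lum lies lower in such cells of the uninjured libraries. Bars are 95% intervals of counting error, and values under 1 CPM are drawn at 1.

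The share of cells with a UMI was taken after the thinning. Fmod was detected in 80.1%, 45.0% and 72.5% of Scx-positive Gli1+ cells and 79.2%, 35.6% and 69.2% of Gli1- cells. Free RNA sets a floor for such shares. Endothelial-like cells, which should lack Fmod, had a UMI in 3.34%, 14.5% and 5.97% of the Gli1+ sort and in 2.44%, 7.56% and 12.8% of the Gli1- sort. Their median depths before thinning, 3192 to 7337 UMIs, were below the 6013 to 12051 UMIs of Pdgfra-positive cells in each library. In uninjured Gli1- Pdgfra-positive cells Fmod was detected in 2.79% (2.35% to 3.29%) of cells, close to the 2.44% (1.81% to 3.23%) of endothelial-like cells, so the share of cells is not above the floor at this depth. The summed level of the gate, 64.2 CPM, was nonetheless above the 9.62 CPM of the endothelial-like cells. In Pdgfra-positive Gli1+ cells the Fmod share was 16.3%, 20.1% and 35.1%, an order that differs from that of the CPM, and no order is read from it. The shares of Omd and Kera in Pdgfra-positive Gli1+ cells at 7 dpi, 1.14% and 3.19%, were likewise at or below the 1.61% and 3.23% of 62 endothelial-like cells. With so few endothelial-like cells these floors are imprecise.

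Lum was detected in more Scx-positive cells at each stage, in 20.5%, 70.1% and 83.2% of Gli1+ and 26.0%, 75.4% and 89.5% of Gli1- cells. Taking Lum UMIs of endothelial-like cells as free RNA, the floor of these shares was 0.334%, 27.4% and 21.9% in the Gli1+ sort and 6.52%, 29.6% and 26.3% in the Gli1- sort, also higher after injury but below the Scx-positive share at each stage. Median depths before thinning were 7282 to 15306 UMIs in the Scx-positive cells. Joint detection with Fmod changed as well. In Scx-positive Gli1+ cells of uninjured tendon 63.3% had Fmod without Lum and 16.8% had both. At 21 dpi 10.6% had Fmod alone and 61.9% had both. Gli1- cells went from 63.6% and 15.6% to 5.79% and 63.4%. The part of free Lum RNA in these shares was not tested. The median cell of the Scx gate held UMIs of 5 or 6 of the 10 members in every library, and of the Pdgfra gate 4 or 5.

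Chondrocyte-like cells, mesenchymal cells with at least 3 of 9 cartilage markers at 0.5% or more of their UMIs, numbered 0 of 2836 mesenchymal cells in uninjured Gli1+ and 0 of 6834 in uninjured Gli1- tendon, which allows shares of up to 0.106% and 0.0439%. At 7 dpi 21 Gli1+ and 30 Gli1- cells were of this kind, and at 21 dpi 178 and 235. At 21 dpi they held Bgn at 3226 and 3206 CPM, Dcn at 3537 and 3391 CPM, Fmod at 1182 and 1304 CPM and Omd at 226 (208 to 244) and 376 (357 to 396) CPM, the Gli1+ value first. Kera was at 1.08 and 4.77 CPM there and Podn at 6.83 and 5.30 CPM. Mural-like cells, the contractile cells of vessel walls, held Aspn before injury at 648 CPM for Gli1+ and 603 CPM for Gli1- libraries, and Bgn at 169 and 215 CPM before injury, 1219 and 1420 CPM at 7 dpi and 1083 and 1214 CPM at 21 dpi. As a measure of free RNA, endothelial-like cells held Dcn at 108, 605 and 264 CPM for Gli1+ and 509, 510 and 499 CPM for Gli1- libraries, below the Dcn level of either gate in every library. Endothelial-like cells of the Gli1+ libraries held Bgn at 50.8, 497 and 324 CPM. The part of free Bgn RNA in the mural-like levels was not tested.

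Genes that build or cut SLRPs were read in the same way. Of 32 enzymes of glycosaminoglycan chains, 21 or 22 were tested between uninjured tendon and 7 dpi. In Pdgfra-positive cells 6 were higher and 0 lower in Gli1+ and 8 higher and 1 lower in Gli1- cells, where 10% and 9.61% of all genes were higher and 14.5% and 11.4% lower. In Scx-positive cells 4 were higher in Gli1+ and 5 in Gli1- cells and 0 lower, against 9.48% and 8.66% of all genes higher and 15.8% and 12.5% lower. Chst11, a chondroitin sulfotransferase, went from 54.6 to 175 CPM in Gli1+ and 24.9 to 161 CPM in Gli1- Pdgfra-positive cells, and Csgalnact1, which starts chondroitin chains, from 70.1 to 268 CPM in Gli1+ cells. From 7 to 21 dpi 0 of the 22 or 23 enzymes tested passed 2-fold in either direction, near the 2.38% to 2.78% of all genes that were higher and the 2.16% to 4.09% that were lower. Of 8 proteases, Mmp13 and Mmp3 were the 2 that were higher from 7 to 21 dpi in both gates and sorts, against the same shares of all genes. Mmp13, collagenase 3, stood at 10.1, 54.3 and 1413 CPM in Pdgfra-positive Gli1+ and 2.80, 38.2 and 1782 CPM in Gli1- cells. Between uninjured tendon and 7 dpi 2 of 8 proteases were higher and 1 lower in Pdgfra-positive Gli1+ cells, and 5 of 8 were higher and 0 lower in Gli1- cells, so that the 1 lower was near the 14.5% of all genes. Among Scx-positive cells 4 of 7 and 5 of 7 were higher and 0 lower, with the shares of all genes higher and lower as given for the enzymes.

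Of 9 other leucine-rich repeat genes, 3 to 5 were tested in each comparison. At 7 dpi over uninjured, 2 were lower in each gate and sort, and 1 was higher, or 2 in Scx-positive Gli1- cells, against 11.4% to 15.8% of all genes lower and 8.66% to 10% higher. With 3 or 4 genes tested these counts are small. Chad, chondroadherin, was at 1123, 30.3 and 129 CPM in Scx-positive Gli1+ and 861, 17.5 and 140 CPM in Gli1- cells. Ecm2, the neighbour of Aspn, was at 285, 35.8 and 124 CPM and 371, 42.9 and 113 CPM in these cells. Lrrc17 was higher at 7 dpi, at 126 CPM against 5.05 CPM in uninjured Scx-positive Gli1+ cells and 167 against 11.4 CPM in Gli1- cells.

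The 6 members lower at 7 dpi in Scx-positive Gli1+ cells were so among cells of 1 sex too. Among cells with Y-linked and no Xist transcripts, the log2 ratios of 7 dpi over uninjured in Scx-positive Gli1+ cells were -2.47 for Dcn, -3.37 for Fmod, -3.25 for Prelp, -3.20 for Omd, -1.90 for Ogn and -2.59 for Kera, while Lum was at 2.27, Bgn at 1.21 and Aspn at 0.80. In the corresponding Pdgfra-positive cells Fmod was at -2.52 in Gli1+ and 1.39 in Gli1- cells. Kera was at -0.98 in the Gli1+ cells, where all cells gave 0.08. For 21 dpi over uninjured, only Gli1+ cells could be compared within a sex. In Pdgfra-positive cells with Xist alone Lum was at 2.08 and Bgn at 1.49, against 2.0 and 1.55 in all cells. Dcn was at -0.90, Omd at -0.75, Ogn at -0.86 and Podn at -0.94, each under 2-fold, against -1.02, -1.25, -1.02 and -1.09 in all cells. Fmod was at 0.55 against -0.02. Kera was at 2.44 against 1.24 in this gate, and in Scx-positive cells at 0.40 (0.24 to 0.57) against -0.80, so its direction there differed between cells with Xist alone and all cells.

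Across 30 points, the 5 tendon mesenchymal classes in 6 libraries, the member pairs most alike in log2(CPM + 10) were Fmod and Kera (Pearson r = 0.90) and Bgn and Aspn (0.82). The least alike were Dcn with Bgn and Lum with Ogn (both -0.76). Of 5523 genes that reached 50 CPM at a point, the members and the gate markers were not named as most alike. The pattern closest to Fmod was that of Cilp2 (0.96), followed by Itgbl1 and Hbegf (both 0.93). Kera was most like Tnmd (0.95), Bgn like Timp1 (0.96) and Cthrc1 (0.96), Dcn like Selenop (0.95), Prelp like Ecm2 (0.93), Ogn like Cys1 (0.95), Podn like Nid1 (0.92), Aspn like Cenpb (0.91) and Omd like Luzp1 (0.88). The points share libraries, depth and sex, so these values describe and do not test.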

How the data were processed

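The deposited matrices hold UMI counts per gene and cell, made by the authors with Cell Ranger and STAR on 10x 3' libraries. The submitters' notes name Cell Ranger 3.1.0 and build mm10, while the matrix headers name Cell Ranger 9.0.0. No normalized values or authors' comparisons were used.

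Cells were kept with at least 200 genes, 1000 UMIs, log10 genes over log10 UMIs above 0.7, and under 5% mitochondrial and 5% hemoglobin UMIs. Doublets were removed with Scrublet in scanpy 1.11.5, assuming 0.8% per 1000 cells. Gated counts were summed per library and given as CPM with exact Poisson intervals. Log2 ratios carry exact binomial intervals. A gene was tested where the mean CPM of the compared libraries was at least 10, and called at 2-fold or more. Conditions were not tested against each other, since each was 1 library. The ratio calculation was tested on simulated data.

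A cell was named for a list with UMIs of at least 3 of its markers and a minimum share of its UMIs: 1% for epidermal and muscle, 0.5% for chondrocyte and bone, and 0.1% for other lists. These minimum shares were chosen after free keratin RNA had been seen in the data. The members and gene lists were chosen with earlier results of these data known. All 10 members are named, with up to 4 genes per other list with the largest ratios past 2-fold, and the 3 genes most alike to each member over 30 points of log2(CPM + 10). The gene most alike to Lum is not reported here. For shares of cells, each cell was thinned to 2000 UMIs and shallower cells were left out. Promoter sequences are from RefSeq (GRCm38.p6). Python 3.11.15, numpy 2.4.6, scipy 1.17.1, pandas 2.3.3, matplotlib 3.10.9, R 4.3.3 and edgeR 4.0.16 (TMM factors) were used. Alternatives covered the filters, doublets, gate strictness, thinning, scaling, cells of other lineages and cells of 1 sex.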

Additional observations from a re-analysis of the deposited data

Results flagged for a closer look

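The change of Fmod from uninjured tendon to 7 dpi in Pdgfra-positive cells had opposite signs in the sorts, with log2 ratios of -1.78 in Gli1+ and 0.99 in Gli1- cells. Among cells with Y-linked and no Xist transcripts the values were -2.52 and 1.39, and with cells thinned to 2000 UMIs -1.02 and 0.71. The change of Aspn over the same interval in Scx-positive cells was 0.66 in Gli1+ and -0.39 in Gli1- cells, and 0.80 and -0.41 among cells with Y-linked transcripts alone. With 1 library per condition, the difference was not tested for either gene.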

How the results depend on the processing

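Thinning each cell to 2000 UMIs changed the counts of members past 2-fold most. Members higher at 21 than at 7 dpi numbered 2 in place of 5 in Pdgfra-positive Gli1+ cells, 2 in place of 4 in Gli1- cells, 2 in place of 5 in Scx-positive Gli1+ cells and 3 in place of 5 in Gli1- cells. Members lower at 7 dpi than uninjured numbered 3 in place of 5 in Pdgfra-positive Gli1- cells. Thinning keeps only cells whose marker UMI is among the 2000 and weights cells equally, and Fmod from 7 to 21 dpi in Scx-positive cells was then 0.56 in Gli1+ and 0.97 in Gli1- cells, against 1.41 and 1.80. Members lower at 21 dpi than uninjured numbered 1 with thinning, 0 with TMM scaling and 0 among cells with Xist alone, in place of 4, in Pdgfra-positive Gli1+ cells, and with TMM scaling 2 and 3 in place of 5 in Scx-positive Gli1+ and Gli1- cells. Members higher at 7 dpi than uninjured numbered 2 in place of 1 in Pdgfra-positive Gli1+ cells with thinning, with TMM scaling and with at least 2 UMIs of the marker, and 2 in place of 1 in Scx-positive Gli1- cells with TMM scaling. With thinning Podn was lower by 2-fold at 21 than at 7 dpi in Pdgfra-positive Gli1- cells (-1.11), where no member was before. The other counts stayed within 1.5 times their value under the alternatives run. Shares of all genes past 2-fold are given for total UMIs and TMM scaling only, so counts under other settings have none beside them. TMM scaling shifted the log2 ratios of the 3 contrasts by 0.06 to 0.56 (median 0.22), and 114 of 120 kept their sign. Shifts were wider with at least 2 UMIs of the marker (-0.64 to 1.16, 116 of 120 with the same sign), with thinning (-1.31 to 2.39, 116 of 120), among cells with Y-linked and no Xist transcripts (-1.12 to 0.45, 39 of 40) and among cells with Xist alone (-0.21 to 1.20, 18 of 20). Leaving out chondrocyte-like and bone-like cells, chosen after seeing the data, kept the sign of 118 of 120 ratios with shifts of -1.34 to 0.04, and 119 kept it on leaving all cells unfiltered. Comparing only Xist-positive cells at 21 dpi and leaving out cells of other lineages by level were also chosen after seeing the data. No value could be had between 7 and 21 dpi within a sex, or for Gli1+ cells at 7 dpi without cells holding 3 markers of another lineage, since 43 and 17 cells remained. No paired analysis was possible because each condition had 1 library. Counting intervals do not cover variation between mice.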
